A study of Mus musculus with 2 samples.

Results

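The small nuclear RNAs (snRNAs) of the spliceosome and the small Cajal body-specific RNAs (scaRNAs) that guide their chemical modification were followed in primary murine fibroblasts (PMFs) with high or low levels of the C/D box snoRNA AF357425. Members were the entries that the annotation classes as snRNA or scaRNA in a table of Ensembl noncoding RNAs (53 of 1596 entries, with 38 snRNAs and 15 scaRNAs) and as snRNA in a table of RNAcentral entries (7 of 2980), which makes 60 of 4576 entries. All 53 Ensembl members were matched to a gene of GENCODE M21 on GRCm38. The RNAcentral entries are known only by identifier.

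Small RNA was sequenced from 1 library of AF25-high PMFs, which had received 200 nM of the 3rd generation antisense oligonucleotide 3GA-AF25, and 1 library of AF25-low PMFs, which had received 500 nM of the gapmer GM-AF25. Both cultures came from the ears of C57BL/6 mice (C57BL/6-J in the methods of the study) of about 3 weeks of age. Both were held for 48 h in 10 µM KN-93, a CaMK-II inhibitor used to synchronize the cell cycle, and were then transfected for 24 h. The study asked which small RNAs AF357425 targets, and the comparison here is that of AF25-high with AF25-low cells.

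The class of the oligonucleotide and its dose differed between the same libraries as the AF357425 level, so these cannot be told apart, and a library with a control oligonucleotide was not analysed here. The level of AF357425 itself was also not analysed here. With 1 library per condition, no difference has a replicate check and no test between conditions was possible. Each ratio of RPM (reads scaled to the size of the whole library) in AF25-high over AF25-low is therefore followed by its 95% interval (Clopper-Pearson, exact), a measure of counting error alone, as sequenced reads are not independent molecules. In bulk RNA, fewer cells of a type and less RNA per cell cannot be told apart.

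snRNAs are short, abundant noncoding RNAs that form the core of the spliceosome, the machine that removes introns from pre-mRNA. U1 pairs with the 5′ splice site, U2 with the branch point, and U5 holds the exon ends, while U11 and U12 take the places of U1 and U2 in the minor spliceosome, which removes a rare class of introns. Most snRNAs are bound by a ring of Sm proteins on a short uridine-rich site. scaRNAs pair with snRNAs in the Cajal bodies of the nucleus and guide 2′-O-methylation (box C/D type) or pseudouridylation (box H/ACA type). In small RNA libraries, reads on these genes are from short pieces of the RNAs and their number need not follow the amount of the intact RNA.

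The following sequences are GENCODE M21 transcripts on GRCm38, written 5′ to 3′ as DNA, and positions are counted from 1 at the 5′ end. The pair of U2 genes with the most reads is shown first, because a single base separates them. It is in capitals: the substitution G109C leads from Gm23849 (chr11:101627366-101627556, plus strand, in an intron of Rdm1) to Gm23472 (chr1:72236946-72237136, plus strand, outside protein-coding genes of its strand).
Gm23849: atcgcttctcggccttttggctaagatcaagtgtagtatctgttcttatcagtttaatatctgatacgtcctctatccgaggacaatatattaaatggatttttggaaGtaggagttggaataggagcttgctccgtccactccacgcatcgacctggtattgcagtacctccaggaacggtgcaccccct
Gm23472: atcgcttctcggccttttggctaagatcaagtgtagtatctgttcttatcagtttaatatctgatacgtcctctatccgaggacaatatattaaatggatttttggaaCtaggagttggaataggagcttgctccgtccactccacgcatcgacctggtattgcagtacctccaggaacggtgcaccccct

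Rnu1a1 (chr11:87422867-87423030, plus strand, in an intron of Tex14), Rnu12 (chr15:83149644-83149794, plus strand) and Rnu11 (chr4:132270080-132270213, minus strand) are the named snRNAs of U1 and of the minor spliceosome with the most reads. Capitals mark A, 3 to 6 T and G, the run searched for as a possible Sm site, and in Rnu1a1 also the bases ACTTACCTG at positions 3 to 11, the stretch with which U1 pairs with the 5′ splice site.
Rnu1a1: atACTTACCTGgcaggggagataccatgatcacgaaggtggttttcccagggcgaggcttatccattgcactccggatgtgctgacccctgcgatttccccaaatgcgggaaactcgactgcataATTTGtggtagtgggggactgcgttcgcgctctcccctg
Rnu12: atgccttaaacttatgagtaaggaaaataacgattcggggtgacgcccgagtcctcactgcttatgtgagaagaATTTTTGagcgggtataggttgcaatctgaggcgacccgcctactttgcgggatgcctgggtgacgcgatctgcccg
Rnu11: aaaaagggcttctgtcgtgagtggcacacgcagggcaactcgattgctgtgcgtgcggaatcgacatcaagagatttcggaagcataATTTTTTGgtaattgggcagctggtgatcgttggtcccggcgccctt

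Gm24265 (chr5:115489459-115489599, plus strand) and Gm25541 (chr2:27539805-27539930, minus strand) are classed as snRNAs but have no close relative among the named snRNAs aligned with them. Those were U1, U2, U5, U6, U7, U11 and U12 genes only, so a relation to U4, U4atac or U6atac was not tested. Gm24265 and Gm25541 are shown because their ratios differed. Gm24265 has the run of A, T and G in capitals, and Gm25541 has none.
Gm24265: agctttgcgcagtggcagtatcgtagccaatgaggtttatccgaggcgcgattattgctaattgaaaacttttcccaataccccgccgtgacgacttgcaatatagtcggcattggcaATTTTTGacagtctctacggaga
Gm25541: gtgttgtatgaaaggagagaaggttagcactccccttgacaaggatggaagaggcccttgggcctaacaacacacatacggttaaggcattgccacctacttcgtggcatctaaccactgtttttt

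Of the scaRNAs, Gm25395 (chr1:87776938-87777209, plus strand, in an intron of Atg16l1), Scarna13 (chr12:105031075-105031349, minus strand) and Scarna3a (chr1:159340283-159340422, plus strand, in an intron of Cop1) are shown because they had the most reads or the largest ratio. Capitals mark each match to TGATGA (a form of the C box), to CTGA (the letters of the D box) and to ACA in the last 8 bases. A marked CTGA need not be a D box.
Gm25395: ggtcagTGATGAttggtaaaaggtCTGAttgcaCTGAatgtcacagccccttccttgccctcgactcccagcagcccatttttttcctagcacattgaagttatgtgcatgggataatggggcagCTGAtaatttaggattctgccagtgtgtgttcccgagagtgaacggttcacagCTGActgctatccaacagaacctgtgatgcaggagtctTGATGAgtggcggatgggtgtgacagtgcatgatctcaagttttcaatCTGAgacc
Scarna13: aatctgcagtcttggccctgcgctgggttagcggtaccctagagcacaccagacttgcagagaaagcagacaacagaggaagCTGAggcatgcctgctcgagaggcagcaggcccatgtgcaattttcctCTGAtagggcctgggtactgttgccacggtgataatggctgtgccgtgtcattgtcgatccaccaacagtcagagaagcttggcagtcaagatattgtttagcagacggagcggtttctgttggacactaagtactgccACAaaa
Scarna3a: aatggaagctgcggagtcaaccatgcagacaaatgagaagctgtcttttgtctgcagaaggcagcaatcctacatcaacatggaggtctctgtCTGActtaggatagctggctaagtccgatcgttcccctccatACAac

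The search covered only the strand of the transcript. The run of A, 3 to 6 T and G (ATTTG in its shortest form) was present in 30 of the 38 snRNAs and in 14.3% of 412 transcripts of other classes in the same table with lengths of 62 to 191 nt, the range of the snRNAs. ACTTACCTG in the first 12 bases was present in 8 of the 38 snRNAs, all of them U1 genes, and in 0 of the 412. Among the 15 scaRNAs, 8 held TGATGA, 11 held CTGA and 10 ended with ACA in the last 8 bases, against 15.4%, 60.9% and 30.1% of 345 transcripts of other classes with lengths of 79 to 414 nt. CTGA can overlap the first bases of TGATGA, and such matches are no evidence that a box is in use.

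The library totals came to 28856715 reads for AF25-high and 29103700 for AF25-low. On the Ensembl table there were 375931 reads in AF25-high against 533803 in AF25-low, and the RNAcentral entries had 128776 in AF25-high against 115470 in AF25-low. snRNAs took 0.459% (95% interval 0.438 to 0.481%) of the Ensembl reads in AF25-high and 0.222% (0.209 to 0.235%) in AF25-low. As a check of the cell type, 5 of 9 listed microRNA genes of fibroblasts and mesenchymal cells were in the Ensembl table, with 2444 reads in AF25-high against 2472 in AF25-low, most of them from Mir143 (2085 in AF25-high against 2112 in AF25-low). Of the 7 listed microRNAs of epithelium only Mir200a was in it, with 6 reads in AF25-high against 0 in AF25-low, and the listed microRNAs of neurons, striated muscle, endothelium and blood had no entry. In the study most reads of each library went to microRNAs, and the Ensembl entries hold only a small part of them. A missing entry is therefore no evidence that a cell type was absent. The part of the few Mir200a reads in the results was not tested.

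Reads on snRNAs of the Ensembl table were more frequent in AF25-high cells, and reads on scaRNAs were less frequent by RPM but not when scaled by the total of the table. The 38 snRNAs had 1726 reads (59.8 RPM) in AF25-high against 1184 reads (40.7 RPM) in AF25-low, a ratio of 1.47 (95% interval 1.36 to 1.58). The 15 scaRNAs had 400 reads (13.9 RPM) in AF25-high against 555 reads (19.1 RPM) in AF25-low, a ratio of 0.727 (0.638 to 0.828), which turned to 1.02 when each library was scaled by its total in that table. In the RNAcentral table, the 7 snRNA entries went the other way from the Ensembl snRNAs, with 847 reads (29.4 RPM) in AF25-high against 1563 (53.7 RPM) in AF25-low, a ratio of 0.547 (0.502 to 0.595). Summed over both tables, snRNAs had 2573 reads in AF25-high against 2747 in AF25-low, a ratio of 0.945 (0.895 to 0.997). The direction of the snRNAs as a class therefore depended on the table. The study itself lists a class total for snRNAs, which was slightly lower in AF25-high than in AF25-low.

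Few members had enough reads for a ratio of their own. Of the 53 Ensembl members, 15 had at least 20 reads in the library with more reads, and the other 38 had fewer. Of the 15, 6 were at least 2-fold higher and 0 at least 2-fold lower in AF25-high, against 15.8% (69) higher and 12.2% (53) lower of all 436 Ensembl entries with that many reads. The interval lay above 1 for 8 of the 15 and below 1 for 2, against 29.1% and 26.6% of the 436. The median log2 ratio of the 15 was 0.67 and that of the 436 was 0.06, a description of these libraries in which genes of 1 family share sequence and thus reads. Scaled by the authors' size factors, 6 of the 15 were at least 2-fold higher and 2 at least 2-fold lower (all entries, 11% and 17.4%), and scaled by the total of the same table, 9 and 0 (all entries, 30.7% and 4.82%). Of the 3 RNAcentral members with at least 20 reads, 0 were at least 2-fold higher and 0 at least 2-fold lower, against 25.2% and 14.4% of all 369 such entries.

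**Figure D1:**
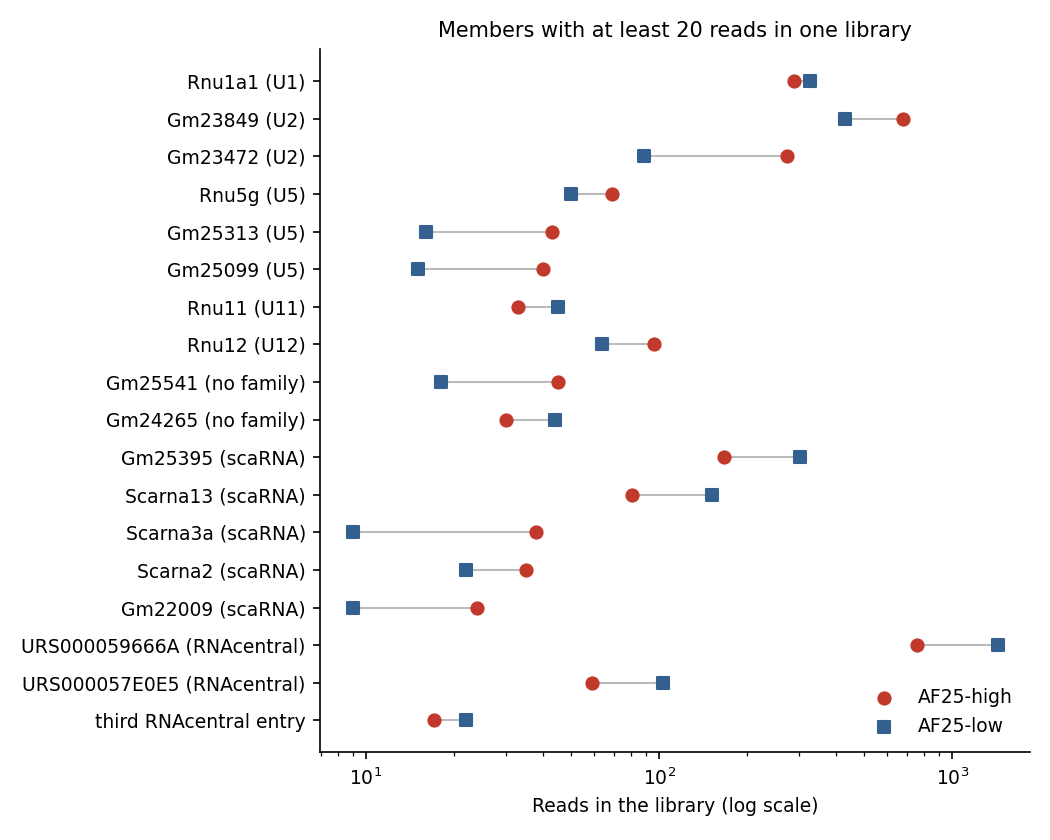
Reads of the 15 Ensembl members and 3 RNAcentral snRNA entries with at least 20 reads in one library, on a log axis, with AF25-high as red circles and AF25-low as blue squares (1 library each). The U2 and U5 genes had more reads in AF25-high (Gm23472, 274 in AF25-high against 89 in AF25-low), whereas Gm25395, Scarna13 and the RNAcentral entries had more in AF25-low.

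U2, the RNA of the branch point, carried most of the difference among the Ensembl snRNAs. The 9 U2 genes, by alignment to Rnu2-10 at 60% identity or more, had 1031 reads in AF25-high against 563 in AF25-low, a ratio of 1.85 (1.67 to 2.05). This was 59.7% of the snRNA reads of the table in AF25-high and 47.6% in AF25-low. The ratio was 1.60 with the authors' size factors and 2.60 with the total of the same table.

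The most read U2 gene, Gm23849, had 677 reads in AF25-high against 429 in AF25-low (23.5 and 14.7 RPM), a ratio of 1.59 (1.41 to 1.80). Its 191-nt sequence is identical to those of Rnu2-10, Gm23971 and Gm24950, so its reads stand for a sequence of several genes, of which the table lists this one. Gm23472 had 274 reads in AF25-high against 89 in AF25-low (9.50 and 3.06 RPM), a ratio of 3.10 (2.44 to 3.99), and is identical to Gm23444. The interval of Gm23472 lies above that of Gm23849, although the sequences printed above differ only at position 109.

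A read that does not cover position 109 fits both sequences equally, and where more than 1 locus matched, the authors placed the read at the most highly expressed one. Of the 167 windows of 25 nt in Gm23849, 0 were found in its sequence alone, and Gm23472 likewise had 0 of 167. How the shared reads were divided in each library was not tested.

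The other U2 genes had far fewer reads and are named here for their family, after their values had been seen. Gm25360 had 19 reads in AF25-high against 6 in AF25-low, Gm22973 had 17 in AF25-high against 6 in AF25-low, and Gm24497 had 15 in AF25-high against 5 in AF25-low. Gm22970, with 70.7% identity to Rnu2-10 the most distant copy, had 19 reads in AF25-high against 14 in AF25-low, and Gm26316 had 10 in each. Gm25939 and Gm25813 were listed at 0 reads in AF25-high, with 3 reads (Gm25939) and 1 read (Gm25813) in AF25-low.

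The U2 genes lie mainly in a pair of clusters, one of 4 listed genes on chromosome 1 within 29.0 kb and one of 2 listed genes on chromosome 11 within 22.7 kb. The chromosome 1 genes (Gm23472, Gm24497, Gm25360 and Gm25939) had 308 reads in AF25-high against 103 in AF25-low, a ratio of 3.02 (2.41 to 3.81). The chromosome 11 genes (Gm23849 and Gm26316) had 687 reads in AF25-high against 439 in AF25-low, a ratio of 1.58 (1.40 to 1.78). The chromosome 1 cluster thus held 29.9% (27.1 to 32.8%) of U2 reads in AF25-high against 18.3% (15.2 to 21.7%) in AF25-low, a share that no scaling of the libraries changes. All 4 chromosome 1 genes carry C at position 109 in place of the G of Gm23849 (G109C), while Gm26316 and Gm25813 keep the G and Gm22973 has G109A. Grouped by this base, the 3 genes with G had 687 reads in AF25-high against 440 in AF25-low, a ratio of 1.57 (1.40 to 1.78). The sums by cluster and by base follow the gene at which each read was placed. Whether the reads covered position 109 was not tested.

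**Figure D2:**
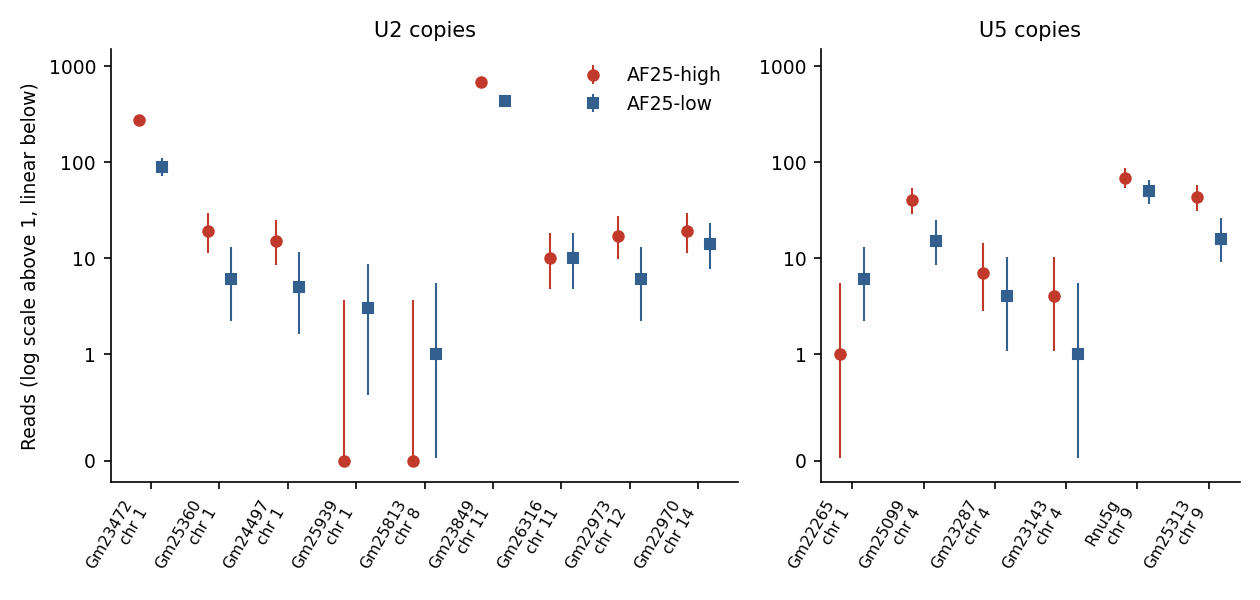
Reads of the 9 U2 genes and the 6 U5 genes in AF25-high (red circles) and AF25-low (blue squares), ordered by chromosome, on an axis that is logarithmic above 1 and linear below; bars are exact Poisson 95% intervals of each count. Gm23849 (677 reads in AF25-high, 429 in AF25-low) and Gm23472 (274 in AF25-high, 89 in AF25-low) stand above the other U2 genes, and the U5 genes of chromosomes 4 and 9 had more reads in AF25-high than in AF25-low.

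U1, which recognizes the 5′ splice site, had a ratio whose interval spans 1. The 11 U1 genes had 308 reads in AF25-high against 341 in AF25-low, a ratio of 0.911 (0.778 to 1.07), which became 0.790 with the authors' size factors and turned to 1.28 with the total of the same table. Nearly all came from Rnu1a1, with 289 reads in AF25-high against 327 in AF25-low (10.0 and 11.2 RPM), a ratio of 0.891 (0.758 to 1.05), or 1.25 when scaled to the total of the same table. Its sequence is shared by 6 other genes. Per length, Gm23849 had 354 reads per 100 nt in AF25-high and 225 in AF25-low, whereas Rnu1a1 had 176 in AF25-high against 199 in AF25-low.

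The other 10 U1 genes had 19 reads in AF25-high against 14 in AF25-low, a ratio of 1.37 (0.651 to 2.95). Among them Gm22513, which differs from Rnu1a1 by the substitution T60C, had 1 read in AF25-high against 7 in AF25-low. Gm26232, identical to Rnu1b6, had 6 reads in AF25-high against 1 in AF25-low, and Rnu1b1, identical to Rnu1b2, had 2 reads in AF25-high against 4 in AF25-low. Gm25704 had 4 reads in AF25-high and was listed at 0 in AF25-low. With a floor of 3 reads per library it was 1.34-fold higher in AF25-high, but its interval, with a lower end of 0.666, spans 1. These counts are too low to set the genes apart.

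Among the Ensembl entries, the balance of U2 to U1 reads can be taken within each library, where scaling cancels. For each read on U1 there were 3.35 reads on U2 in AF25-high against 1.65 in AF25-low. For U5 there were 0.532 reads per U1 read in AF25-high against 0.270 in AF25-low. These quotients of reads compare the libraries and do not give the levels of the RNAs relative to each other. They leave out the RNAcentral snRNA entries, whose families are not known. The largest of those, URS000059666A, had 759 reads in AF25-high against 1427 in AF25-low, more than all U1 genes together in either library. The balance over the snRNA reads of both tables was therefore not tested.

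U5, which aligns the exons in the catalytic centre, also had more reads in AF25-high. The 6 U5 genes had 164 reads in AF25-high against 92 in AF25-low, a ratio of 1.80 (1.38 to 2.35), or 1.56 with the authors' size factors and 2.53 with the total of the same table. Rnu5g had 69 reads in AF25-high against 50 in AF25-low (2.39 and 1.72 RPM), a ratio of 1.39 whose interval spans 1 (0.953 to 2.04). Its neighbour Gm25313 had 43 reads in AF25-high against 16 in AF25-low, a ratio of 2.71 (1.50 to 5.15). Gm25099 had 40 reads in AF25-high against 15 in AF25-low, a ratio of 2.69 (1.45 to 5.24).

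The 3 intervals overlap, so the U5 genes were not set apart from each other at this depth. Gm23287 and Gm23143, in the cluster of Gm25099, had 7 and 4 reads in AF25-high, against 4 and 1 in AF25-low, and that cluster summed to 51 reads in AF25-high against 20 in AF25-low, a ratio of 2.57 (1.51 to 4.55). Gm22265, alone on chromosome 1, had 1 read in AF25-high against 6 in AF25-low. Without Rnu5g, U5 had 95 reads in AF25-high against 42 in AF25-low, a ratio of 2.28 (1.57 to 3.36).

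Summed by name, snRNAs with a standard name had a lower ratio than the others, but the name does not mark a kind of sequence. In AF25-high, the U1 gene Rnu1a1 gave 289 of the 495 reads with an Rnu name. The U2 gene Gm23849, identical to Rnu2-10, gave 677 of the 1231 with a Gm name. The 6 snRNAs with an Rnu name had 495 reads in AF25-high against 493 in AF25-low, a ratio of 1.01 (0.892 to 1.15). The 32 snRNAs with a Gm name, which marks a predicted gene, had 1231 reads in AF25-high against 691 in AF25-low, a ratio of 1.80 (1.64 to 1.98). All 9 U2 genes of the table carry a Gm name, and the 23 other Gm genes had 200 reads in AF25-high against 128 in AF25-low, a ratio of 1.58 (1.26 to 1.98).

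U11 and U12, the RNAs of the minor spliceosome that the annotation of the table names, had ratios on either side of 1, and of these only the interval of Rnu12 excluded it. Its other RNAs, U4atac and U6atac, were not searched for among the members without such a name. Rnu12 had 96 reads in AF25-high against 64 in AF25-low (3.33 and 2.20 RPM), a ratio of 1.51 (1.09 to 2.11). Rnu11 had 33 reads in AF25-high against 45 in AF25-low (1.14 and 1.55 RPM), a ratio of 0.740 (0.457 to 1.19), which was 1.04 with the total of the same table. Together they had 129 reads in AF25-high against 109 in AF25-low, a ratio of 1.19 (0.918 to 1.55). Both RNAs have 25-nt stretches found in no other small RNA of the annotation (15 of 127 windows in Rnu12 and 83 of 110 in Rnu11).

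Rnu7, the U7 RNA of histone mRNA 3′ end processing and not of splicing, had 6 reads in AF25-high against 3 in AF25-low. The U6 family, the catalytic RNA of the spliceosome, was represented by Gm22805 (91.6% identical to Rnu6), with 9 reads in AF25-high against 5 in AF25-low, and Gm22351 (83.2%), with 1 read in AF25-high against 5 in AF25-low. The gene Rnu6 was not analysed here.

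The 7 snRNAs without a close relative among the named genes aligned with them summed to 78 reads in AF25-high against 66 in AF25-low, a ratio of 1.19 (0.848 to 1.68). They are not a family. Gm24265 and Gm25541 share at most 7 bases in a row, so the sum pools unlike sequences. The main members of the 7 lay on either side of 1. Gm25541 had 45 reads in AF25-high against 18 in AF25-low, a ratio of 2.52 (1.43 to 4.63). Gm24265 had 30 reads in AF25-high against 44 in AF25-low, a ratio of 0.688 (0.417 to 1.12). The interval of Gm25541 lies above that of Gm24265, which itself spans 1. Gm24407, within 0.936 kb of Gm24265 and 2 substitutions from it, had 1 read in AF25-high against 0 in AF25-low, and Gm22249, Gm25179 and Gm23214 share the first 41, 49 and 25 bases of Gm24265 and had at most 3 reads in either library.

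**Figure D3:**
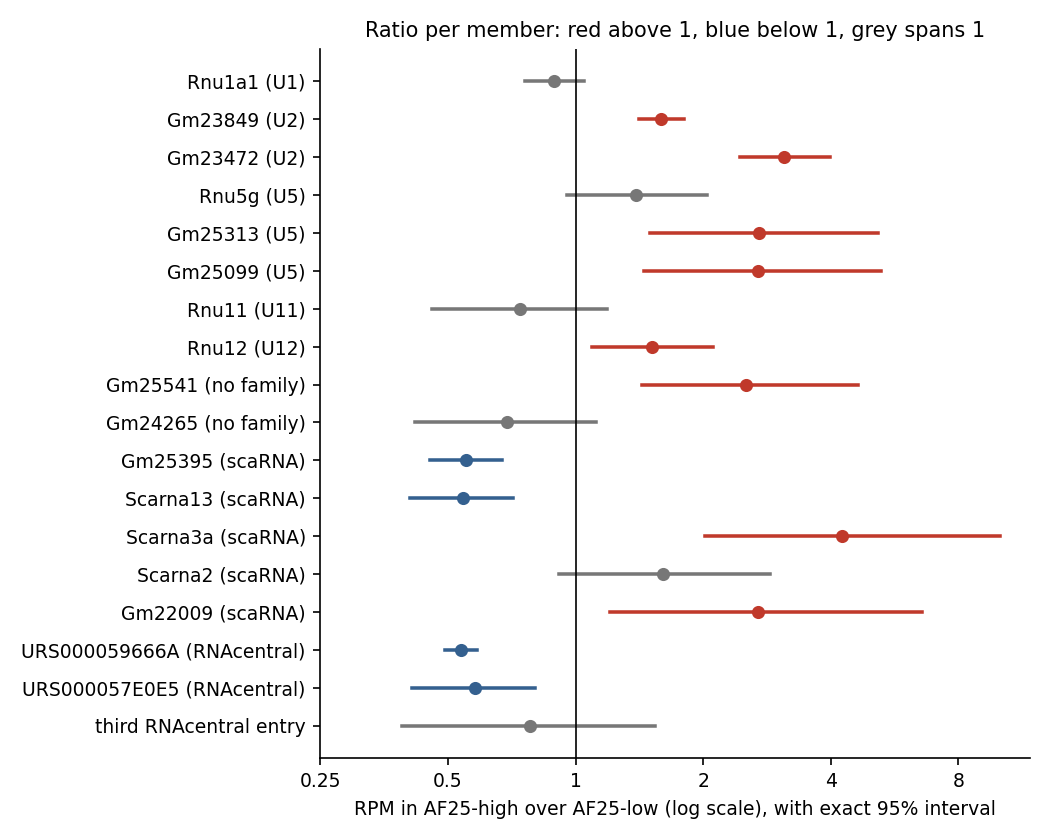
Ratio of RPM in AF25-high over AF25-low for the same members, on a log axis, with exact 95% intervals of counting error; red intervals lie above 1, blue below 1 and grey span 1. The U2 genes, Gm25313, Gm25099, Rnu12, Gm25541, Scarna3a and Gm22009 lie above 1, and Gm25395, Scarna13 and a pair of RNAcentral entries lie below 1.

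Among the scaRNAs were members that were lower and members that were higher in AF25-high. Gm25395 had 166 reads in AF25-high against 303 in AF25-low (5.75 and 10.4 RPM), a ratio of 0.553 (0.454 to 0.670). Scarna13, whose human counterpart is a box H/ACA guide for U2 and U5, had 81 reads in AF25-high against 151 in AF25-low (2.81 and 5.19 RPM), a ratio of 0.541 (0.408 to 0.713). These ratios stayed below 1 under the other scalings, at 0.479 and 0.469 with the authors' size factors and at 0.778 and 0.762 with the total of the same table. Both have sequence of their own, with 248 of 248 25-nt windows of Gm25395 and 205 of 251 of Scarna13 found in no other small RNA of the annotation.

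Gm25395 and Scarna13 made up 61.8% (56.8 to 66.5%) of the scaRNA reads in AF25-high and 81.8% (78.3 to 84.9%) in AF25-low. The other 13 scaRNAs had 153 reads in AF25-high against 101 in AF25-low, a ratio of 1.53 (1.18 to 1.98), or 1.33 with the authors' size factors and 2.15 with the total of the same table. The lower sum of the class in AF25-high thus came from this pair. The pair was set apart with its values known, so sums on opposite sides of 1 follow from the choice and do not mark separate kinds of scaRNA.

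Scarna3a, in an intron of Cop1, had 38 reads in AF25-high against 9 in AF25-low (1.32 and 0.309 RPM), a ratio of 4.26 (2.02 to 10.0), the largest RPM ratio among the 15 Ensembl members with at least 20 reads. Gm22009, in an intron of Kpna4, which encodes a nuclear import receptor, had 24 reads in AF25-high against 9 in AF25-low, a ratio of 2.69 (1.21 to 6.57). Scarna2, whose human counterpart guides 2′-O-methylation of U2, had 35 reads in AF25-high against 22 in AF25-low, a ratio of 1.60 whose interval spans 1 (0.915 to 2.87). Scarna3b, in an intron of Dcaf5 and named as a relative of Scarna3a, had 7 reads in AF25-high against 2 in AF25-low.

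The remaining scaRNAs were near the limit of detection. Scarna6 had 13 reads in AF25-high against 11 in AF25-low, Scarna17 had 9 in each and Scarna8 had 7 in AF25-high against 5 in AF25-low. Scarna6 lies in Atg16l1, an autophagy gene, like Gm25395, and within 7.88 kb of it, and its ratio of 1.19 (0.493 to 2.94) could not be set apart from that of Gm25395 at this depth. Gm24289, in an intron of Tipin, was listed at 0 reads in AF25-high and had 8 in AF25-low. With a floor of 3 reads per library it was 2.64-fold lower in AF25-high, a value that leaves out the counting error of the 8 reads. The interval of its ratio has an upper end of 0.591. Gm24289 was singled out after its values were seen. The 5 others (Gm23751, Gm25492, Gm25820, Gm25624 and Gm23370) had at most 9 reads in either library.

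Of the 15 scaRNAs, 11 lie in an intron of a protein-coding gene of the same strand and 4 do not. The 11 had 272 reads in AF25-high against 368 in AF25-low, a ratio of 0.745 (0.635 to 0.874), and the 4 had 128 reads in AF25-high against 187 in AF25-low, a ratio of 0.690 (0.547 to 0.869). The 8 scaRNAs with TGATGA had a ratio of 0.723 (0.614 to 0.850), with 261 reads in AF25-high against 364 in AF25-low. The 7 with ACA at the end and no TGATGA had a ratio of 0.734 (0.586 to 0.918), with 139 reads in AF25-high against 191 in AF25-low. In each of these groups Gm25395 or Scarna13 gave most of the reads. Counted by member and by RPM, with 0.5 reads added to each value and at any number of reads, 7 of the 8 with TGATGA were higher and 1 was lower in AF25-high. Of the 7 with ACA and no TGATGA, 2 were higher and 5 were lower. Of all 1596 Ensembl entries, 966 were higher and 630 lower. Scarna17 (9 reads in each library) and Gm23370 (1 in each) counted as higher only through the library totals. Only 3 of the 8 and 2 of the 7 had at least 20 reads, so these counts do not set the groups apart.

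Some guides of snRNAs are classed as snoRNAs. Scarna9 had 18 reads in AF25-high against 7 in AF25-low, a ratio of 2.59 (1.03 to 7.35), and Scarna10 had 10 reads in AF25-high against 8 in AF25-low. Of 6 listed snoRNAs whose human counterparts guide 2′-O-methylation of U6, 3 were in the table, with 42 reads in AF25-high against 67 in AF25-low, a ratio of 0.632 (0.419 to 0.944). Snord8 had 20 reads in AF25-high against 41 in AF25-low, a ratio of 0.492 (0.273 to 0.859), Snord67 had 15 reads in AF25-high against 23 in AF25-low, and Snord7 had 7 in AF25-high against 3 in AF25-low. For comparison, the 199 snoRNA entries of the table had a ratio of 0.915 (0.906 to 0.924).

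In the RNAcentral table, 1 entry held nearly all snRNA reads. URS000059666A had 759 reads in AF25-high against 1427 in AF25-low (26.3 and 49.0 RPM), a ratio of 0.536 (0.491 to 0.586). It took 89.6% of the snRNA reads of that table in AF25-high and 91.3% in AF25-low. URS000057E0E5 had 59 reads in AF25-high against 103 in AF25-low, a ratio of 0.578 (0.412 to 0.803), and the next entry had 17 reads in AF25-high against 22 in AF25-low, a ratio of 0.779 (0.389 to 1.54). The other 4 entries had at most 7 reads. Without the largest entry, the ratio of the 7 became 0.653. The rest of the RNAcentral table had a ratio of 1.13 (1.12 to 1.14), and the rest of the Ensembl table one of 0.709 (0.706 to 0.712). snRNAs thus differed from the remainder of each table in opposite directions.

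**Figure D4:**
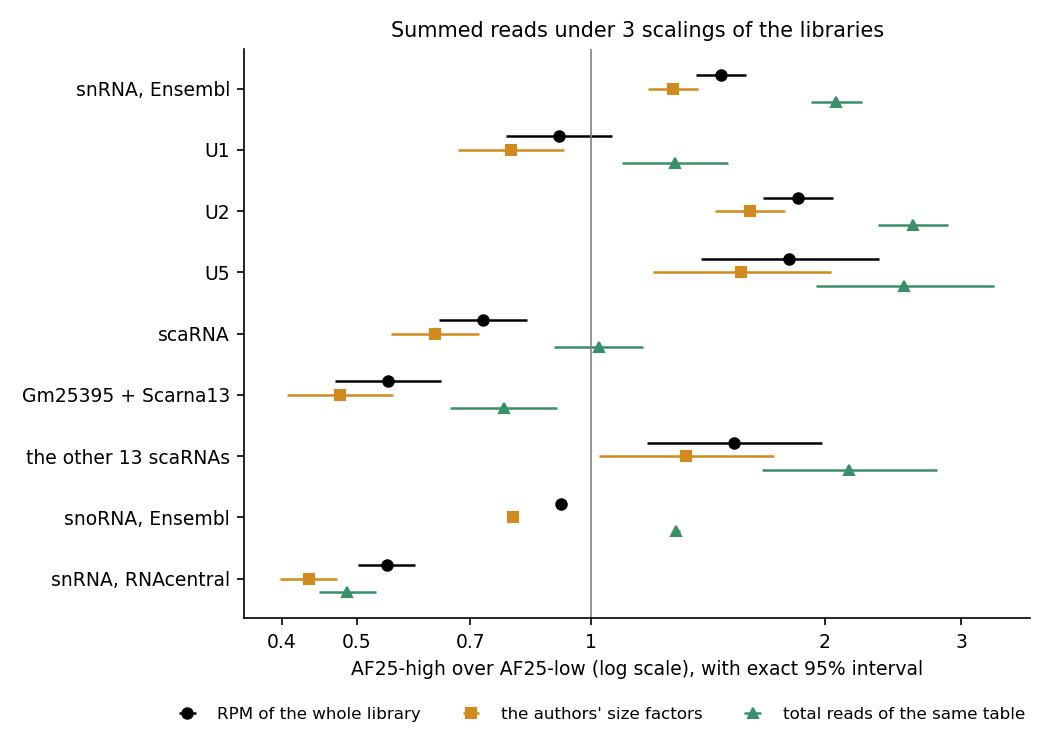
Ratio of summed reads in AF25-high over AF25-low, on a log axis, scaled by RPM of the whole library (black circles), by the authors' size factors (orange squares) and by the total of the same table (green triangles), with exact 95% intervals of counting error. U2, U5 and the other 13 scaRNAs stay above 1, and Gm25395 with Scarna13 and the RNAcentral snRNAs stay below 1, whereas U1 (0.911, 0.790 and 1.28), all scaRNAs (0.727, 0.631 and 1.02) and the snoRNAs (0.915, 0.794 and 1.29) change sides with the scaling. Gm25395 and Scarna13 were set apart from the other scaRNAs with their values known.

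The snRNA ratio was above 1 both for genes with and for genes without sequence of their own. The 6 snRNAs with no 25-nt window of their own had 1249 reads in AF25-high against 850 in AF25-low, a ratio of 1.48 (1.36 to 1.62). The 32 snRNAs with at least 1 such window had 477 reads in AF25-high against 334 in AF25-low, a ratio of 1.44 (1.25 to 1.66). Whether the reads of these 32 fell in such windows was not analysed, so the split does not separate uniquely placed from shared reads. The 28 snRNAs with fewer than 20 reads summed to 130 reads in AF25-high against 87 in AF25-low, a ratio of 1.51 (1.14 to 2.00), and the 10 scaRNAs with fewer than 20 reads to 56 in AF25-high against 61 in AF25-low, a ratio of 0.926 (0.633 to 1.35). Of the 53 members, 6 were listed at 0 in AF25-high against 8 at 0 in AF25-low, and a count of 0 allows up to 3 reads.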

How the data were processed

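Small RNA of whole-cell lysates (TRIzol extraction) was sequenced by the authors on the DNBseq platform. They mapped reads with sRNAbench and Bowtie to GRCm38 and to small RNA databases, kept sense-strand matches, placed each read at 1 locus only and scaled each table by size factors. Tool versions were not given in the sources consulted. The authors' deposited signal values are therefore normalized counts. The deposited tables also hold the authors' fold changes and p-values, which were not used.

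Reads were recovered as multiples of the smallest value above 0 of a column, and with a relative tolerance of 1e-06 100% of the values came out whole. RPM used library totals inferred as the median, over 38 anticodons with at least 100 RPM, of tRNA reads over the RPM that the study lists. Names, coordinates and sequences came from GENCODE M21, which matched 1571 of 1596 Ensembl entries. Sequences are printed for selected members only, and some are not reported here. Families were set by global alignment to named U1, U2, U5, U6, U7, U11 and U12 genes at a minimum of 60% identity. U4, U4atac and U6atac were not among these references. Log2 ratios had 0.5 reads added to each value and a minimum of 20 reads in the higher library, and the fold used was 2. Python 3.11.15, numpy 2.4.6, pandas 2.3.3, scipy 1.17.1, Biopython 1.88 and matplotlib 3.10.9 were used, and the intervals were tested on simulated data. No count model was run on the recovered reads, as each condition has 1 library.

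Named were Ensembl members with at least 20 reads, members named Rnu or Scarna with at least 5, RNAcentral entries with at least 20 (2 by identifier) and listed U6 guides with at least 20. Other genes were named after their values were seen. The members and lists were chosen with earlier results of these data known. Alternatives were the other scalings, other minima, a pseudocount of 1 read and sums over fewer or more entries.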

Additional observations from a re-analysis of the deposited data

How the results depend on the processing

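Compared with RPM, the authors' size factors moved log2 ratios by -0.20 (Ensembl) and -0.33 (RNAcentral), and the total of the same table moved them by 0.49 and -0.17. With the authors' size factors the ratio was 1.28 for snRNAs of the Ensembl table, 0.631 for scaRNAs and 0.434 for snRNAs of the RNAcentral table. With the total of the same table it was 2.07, 1.02 and 0.486, so that the scaRNAs changed direction because that table had fewer reads in AF25-high. For the Ensembl snRNAs the ratio was 1.01 with Rnu genes only and, reversed, 0.945 with the RNAcentral entries added. Without the most abundant entry it was 1.40 for the Ensembl snRNAs, 0.937 for the scaRNAs and 0.653 for the RNAcentral snRNAs. Of the Ensembl members, 1 was at least 2-fold apart with a minimum of 50 reads, against 6. Of the RNAcentral members, 2 were with the authors' size factors and 1 with the total of the same table, against 0. Of 25 members and guides with a ratio of their own, 23 stayed within their interval with the authors' size factors and 18 with the total of the same table, and none whose interval excluded 1 changed sides. The scalings of U1, U2, U5 and of the scaRNA subsets were added after the data were seen. No replicate could be left out, and no paired analysis was possible because each condition has 1 library. Library totals are inferred, the lengths and positions of reads were not analysed here, and most members had fewer than 20 reads, which limits what could be seen.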
